A study of Homo sapiens with 2 samples.

Results

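NOX4 and 9 antioxidant enzyme genes were followed through 10x single-cell RNA counts of cultured human adipose-derived mesenchymal stem cells. The 10 genes, NOX4, SOD1, SOD2, SOD3, CAT, GPX1, GPX3, HMOX1, TXNRD1 and GCLM, were chosen by name as an oxidant-producing enzyme and a set of enzymes that remove or buffer oxidants, and all 10 were found among the 38606 genes counted. The cells are a commercial preparation given as mesenchymal stem cells of adipose origin. They were grown to near confluence and starved overnight. In the TGFB1 group they then received transforming growth factor beta 1 at 10 ng/mL for 24 h, and in the untreated group they received nothing. Both groups were starved, so the starvation is shared by the untreated cells, and each group is 1 library. The TGFB1 library held 12555 cells and 208991941 unique molecular identifiers (UMIs, which count captured RNA molecules), and the untreated library held 8101 cells and 169011524 UMIs. The median cell had 15134 UMIs after TGFB1, against 19249 UMIs when untreated, and 18 cell barcodes occurred in both libraries.

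NOX4 is a membrane NADPH oxidase that releases mainly hydrogen peroxide, and it is a well-known target of transforming growth factor beta in fibroblasts, where it has been tied to myofibroblast formation. Superoxide dismutases turn superoxide into hydrogen peroxide, catalase and glutathione peroxidases remove hydrogen peroxide, and thioredoxin reductase and the enzymes of glutathione synthesis keep the thiol pools reduced. Many genes of the last kind carry antioxidant response elements, DNA sites bound by the transcription factor NRF2 with small MAF partners once NRF2 escapes its inhibitor KEAP1.

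The label of the cells was set against marker genes. All 11 mesenchymal stromal markers were at 5 CPM or more (UMIs of a gene per 1000000 UMIs of the library), with a summed level of 27817 CPM in TGFB1 cells and 28422 CPM in untreated cells. Of 6 endothelial, 6 leukocyte and 6 adipocyte markers none reached 5 CPM, and their summed levels were 0.301, 0.718 and 0.153 CPM in TGFB1 cells, against 0.355, 1.07 and 0.290 CPM in untreated cells. Of 6 epithelial markers 2 reached it (summed 275 CPM in TGFB1 and 714 CPM in untreated cells), of 7 mural markers 2 (69.4 and 113 CPM), and of 6 melanocyte markers 1 (17.9 and 48.1 CPM). A sum can cover opposite changes. In TGFB1 and untreated cells KRT18 was at 80.2 and 35.1 CPM, and KRT19 at 191 and 675 CPM. Among stromal markers COL1A1 was at 9412 and 6862 CPM, and DCN at 771 and 2010 CPM. The 8 cell-cycle markers summed to 76.7 CPM in TGFB1 cells and 260 CPM in untreated cells. Without the cells that had an MKI67 or TOP2A UMI, genes of dividing cells, the NOX4 ratio given below was 5.02 in place of 5.35. The part of the other marker differences in the results was not tested.

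Levels are sums over all cells of a library or cluster, not means of cells. Levels and ratios carry 95% intervals that cover counting error alone and leave out the spread between cells. With 1 library per group there is no replicate and no test of the treatment, so an interval speaks of the pair of libraries, not of the treatment in general. A gene was counted as higher or lower when its ratio was 1.5-fold or more and its level was at least 5 CPM in either library.

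After 24 h of TGFB1, NOX4 was higher and every antioxidant enzyme of the set was lower. NOX4 stood 5.35-fold higher than in untreated cells, mitochondrial SOD2 stood 3.29-fold lower and the thioredoxin reductase TXNRD1 2.49-fold lower. Of the 9 genes at 5 CPM or more, 1 was past 1.5-fold higher, where 8.45% of all 10928 genes at that level were, and 4 were past 1.5-fold lower (SOD2, SOD3, HMOX1 and TXNRD1), where 14.2% of all genes were. The other 4 (SOD1, CAT, GPX1 and GCLM) were lower by less than 1.5-fold. The median log2 ratio of the 9 genes was -0.56, against -0.10 for all genes. At 2-fold, 1 of the 9 was higher (NOX4), against 3.61% of all genes, and 2 were lower (SOD2 and TXNRD1), against 6.05%. Scaled by TMM the all-gene median was 0.06 and 3 members were past 1.5-fold lower, and scaled by the median of ratios it was 0.09 and 2 members were. Relative to the all-gene median of -0.10, the log2 ratio was 2.52 for NOX4, -1.62 for SOD2, -1.21 for TXNRD1, -0.66 for SOD3, -0.54 for HMOX1, -0.46 for CAT, -0.45 for SOD1, -0.43 for GPX1 and -0.26 for GCLM. Such relative values hardly change with scaling, which shifts every gene alike. The log2 ratios themselves, without the median taken off, kept their sign after TMM and median-of-ratios scaling. The smallest was that of GCLM, at -0.21 and -0.17.

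**Figure D1:**
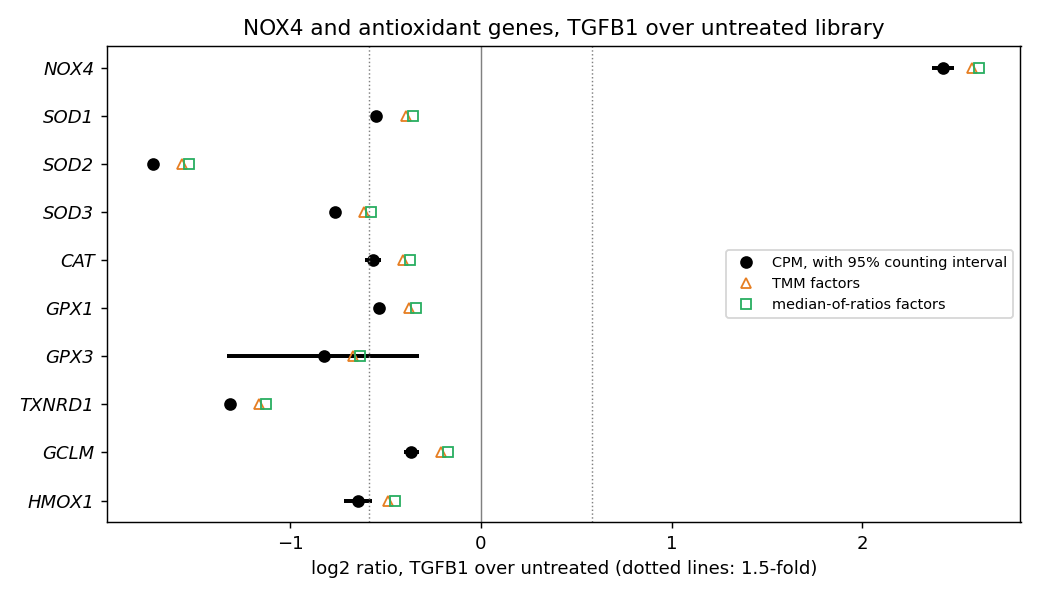
Ratio of each gene's level in TGFB1 over untreated cells on a log2 scale, as CPM with 95% counting intervals (black), after TMM (triangles) and after median-of-ratios scaling (squares), with dotted lines at 1.5-fold. As CPM, NOX4 lies at 2.42 and the 9 antioxidant enzymes lie between -1.72 (SOD2) and -0.36 (GCLM), so all of them are on the lower side.

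NOX4, on the minus strand of chromosome 11 at 89324356 to 89498187 (GRCh38, GENCODE release 29), gave 18427 UMIs in TGFB1 cells and 2784 UMIs in untreated cells. Its level was 88.2 CPM (86.9 to 89.5) in TGFB1 cells and 16.5 CPM (15.9 to 17.1) in untreated cells, a ratio of 5.35 (5.14 to 5.57). Cells with 1 and cells with 2 NOX4 UMIs were both more frequent after TGFB1, which a higher mean per cell gives by itself. A NOX4 UMI was found in 54.6% of TGFB1 cells and 18.7% of untreated cells as sequenced. Because the untreated cells were deeper, each cell was also thinned at random to 7500 UMIs, which left 9330 TGFB1 and 7646 untreated cells and set aside 3225 and 455 shallower ones. NOX4 was then found in 38.6% (37.6 to 39.6) of TGFB1 cells and 9.13% (8.49 to 9.80) of untreated cells. After thinning, 23.9% of TGFB1 cells held 1 NOX4 UMI and 9.13% held 2, against 7.43% and 1.12% of untreated cells. No cell type known to lack NOX4 was present, so the share that free RNA in the droplets gives could not be measured here.

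The NOX4 ratio was of the same direction at every depth of cell. In cells under 7500 UMIs, 3225 after TGFB1 and 455 untreated, the ratio was 3.39 (2.57 to 4.54). It was 7.40 (6.52 to 8.42) in cells of 7500 to under 15000 UMIs, 5.39 (5.05 to 5.76) in cells of 15000 to under 25000 UMIs and 4.86 (4.59 to 5.14) in cells of 25000 UMIs or more. The TGFB1 level lay between 81.5 and 108 CPM over these classes, and the untreated level between 11.6 and 32.0 CPM. The untreated side thus varied more in proportion, though not in CPM. Its 32.0 CPM (23.9 to 41.8), in cells under 7500 UMIs, rests on 53 NOX4 UMIs.

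The authors' clustering, numbered 0 to 10, mostly separates the libraries, and 14 combinations of cluster and library held at least 50 cells. NOX4 was highest in TGFB1 cells of cluster 0 at 118 CPM (115 to 120), the largest TGFB1 group with 5303 cells. TGFB1 cells of cluster 10 followed at 101 CPM (84.7 to 120), in 113 cells with the highest level of the smooth muscle actin gene ACTA2, 4574 CPM. The intervals of those 2 groups overlap. Clusters 3, 9, 8 and 5 of the TGFB1 library came next at 87.0, 86.1, 80.2 and 72.2 CPM, with each interval overlapping that of its neighbour. Below them lay TGFB1 cells of cluster 7 at 53.6 CPM, cluster 4 at 42.6 CPM and cluster 1 at 38.5 CPM (27.9 to 51.9). The untreated groups were all lower, at 27.5 CPM in cluster 7, 21.4 in cluster 1, 21.3 in cluster 9, 9.86 in cluster 2 and 7.53 in cluster 6. All 9 TGFB1 groups were therefore above all 5 untreated groups, although the intervals of TGFB1 cluster 1 and untreated cluster 7 overlap.

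**Figure D2:**
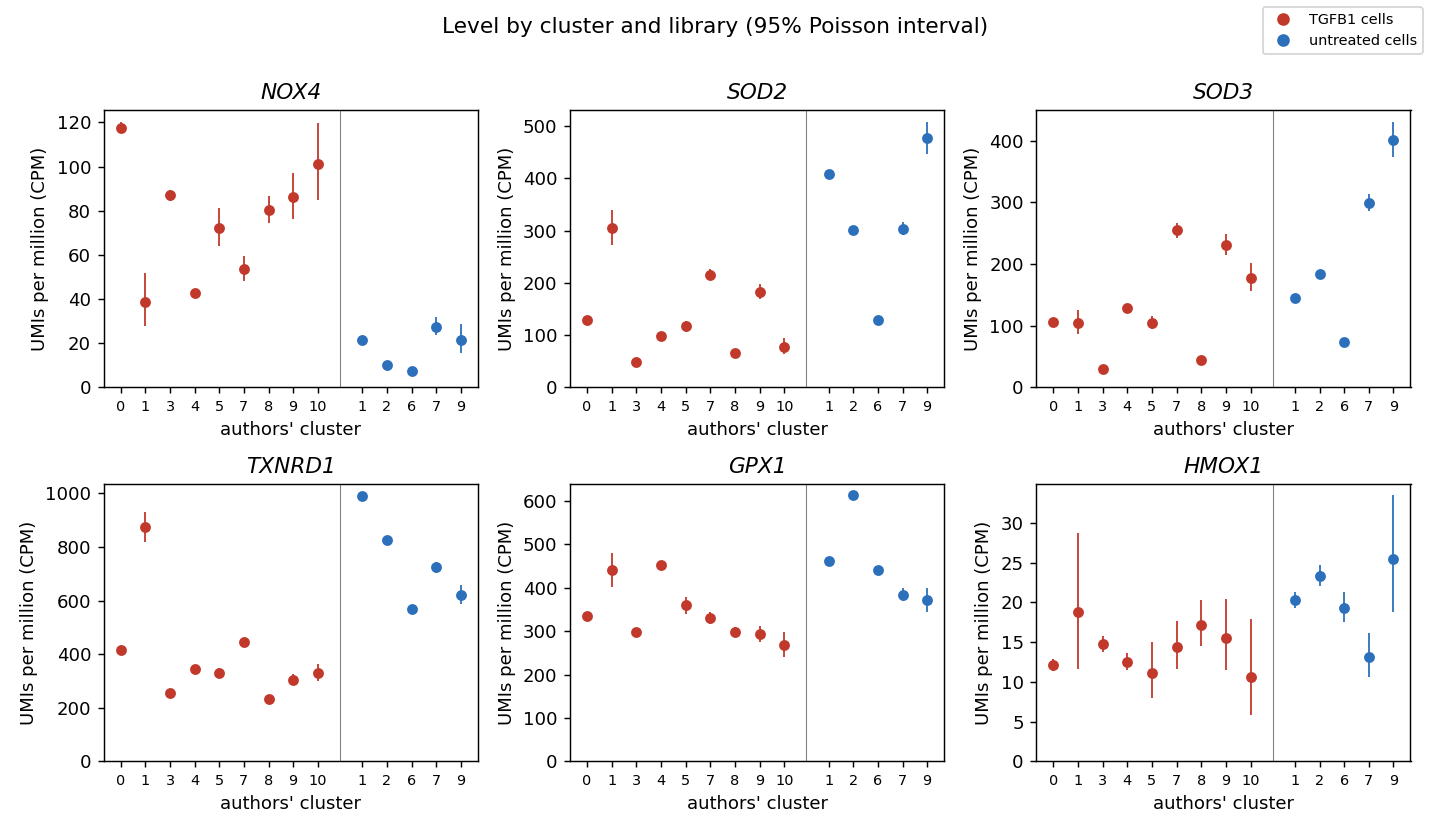
Levels in CPM of NOX4, SOD2, SOD3, TXNRD1, GPX1 and HMOX1 in each combination of cluster and library with at least 50 cells, TGFB1 cells in red and untreated cells in blue, with 95% counting intervals. NOX4 lies between 38.5 and 118 CPM in the TGFB1 groups and between 7.53 and 27.5 CPM in the untreated groups, while the SOD2, SOD3 and TXNRD1 ranges of the libraries overlap.

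Within a library NOX4 differed between clusters as well. In the TGFB1 library, cells of cluster 4 had 42.6 CPM and cells of cluster 0 had 118 CPM, 2.76-fold lower (2.62 to 2.90). Cluster 4 had a larger share of ribosomal protein UMIs, 16.8% against 12.9% in cluster 0, and 30.7% of 6373 genes were past 1.5-fold lower in it. In the untreated library, cells of cluster 2 had 9.86 CPM and cells of cluster 1 had 21.4 CPM, 2.17-fold lower (1.97 to 2.40). Cluster 2 had a ribosomal share of 18.1% against 14.3% in cluster 1, with 31.0% of 6739 genes past 1.5-fold lower. NOX4 was the single member past 1.5-fold lower in each of these contrasts, among 8 members at 20 CPM or more in the TGFB1 contrast and 9 in the untreated one, a smaller share than in all genes. None was past 1.5-fold higher, where 1.82% and 0.846% of genes were. These clusters were made by the authors from the same cells, so such differences describe the clusters and are no test of them.

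Clusters 1, 7 and 9 held at least 50 cells of both libraries, so the treated and untreated cells could be set side by side inside each. In cluster 1 the 56 TGFB1 cells had 38.5 CPM of NOX4 and the 3687 untreated cells 21.4 CPM, a ratio of 1.80 (1.30 to 2.43). In cluster 7 the 303 TGFB1 cells had 53.6 CPM and the 274 untreated cells 27.5 CPM, a ratio of 1.95 (1.63 to 2.34). In cluster 9 the 183 TGFB1 cells had 86.1 CPM and the 108 untreated cells 21.3 CPM, a ratio of 4.04 (2.91 to 5.73). NOX4 was thus higher in cells of the TGFB1 library inside all 3 clusters, and the ratio in clusters 1 and 7 was smaller than over all cells. Cluster 1 is made up almost wholly of untreated cells, and whether its 56 TGFB1 cells are correctly assigned to their library could not be settled, so its ratios hold for the library labels as deposited. IL11 was at 26.0 CPM in these 56 cells, against 110 CPM in TGFB1 cells of cluster 0 and 2.80 CPM in untreated cells of cluster 1.

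Inside these clusters 1 member (NOX4) of 9 was past 1.5-fold higher in cluster 1, where 1.93% of 6846 genes were, and none was lower, where 2.18% were. In cluster 7, 1 of 8 was higher (NOX4) and 1 lower (TXNRD1), against 3.75% and 2.79% of 6528 genes. In cluster 9, 1 of 9 was higher (NOX4) and 4 were lower (SOD2, SOD3, HMOX1 and TXNRD1), against 8.85% and 11.7% of 7255 genes. Cluster 9, with PI16 at 390 CPM in TGFB1 and 262 CPM in untreated cells, was the cluster in which the same 5 genes were past 1.5-fold as over all cells. For HMOX1 this rests on 50 UMIs in each library.

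**Figure D3:**
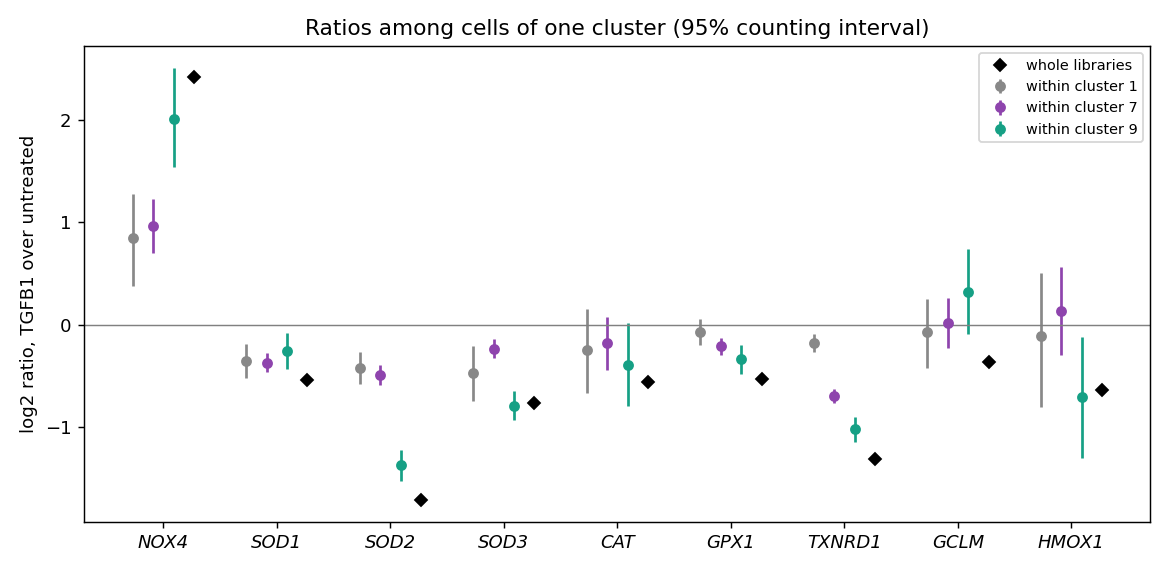
Ratio of TGFB1 over untreated cells inside clusters 1, 7 and 9 on a log2 scale, with 95% counting intervals, for the members other than GPX3, and over the whole libraries (diamonds). NOX4 is above 0 in all 3 clusters, and SOD2, SOD3 and TXNRD1 are below 0 in all 3, with SOD2 and TXNRD1 farthest below in cluster 9.

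SOD2 is the manganese superoxide dismutase of the mitochondrial matrix and a gene known to respond to inflammatory cytokines. Its level was 102 CPM (101 to 103) in TGFB1 cells and 336 CPM (333 to 338) in untreated cells, 3.29-fold lower (3.24 to 3.35). In cells under 7500 UMIs it was 4.65-fold lower (4.29 to 5.03), and in cells of 25000 UMIs or more 3.30-fold lower (3.22 to 3.39). It was found in 42.6% of TGFB1 cells and 69.7% of untreated cells thinned to 7500 UMIs. At 6 UMIs or more there were 1.78% of TGFB1 cells and 14.2% of untreated cells. Cells with many SOD2 UMIs were thus rarer after TGFB1. The mean per thinned cell was lower too, at 0.81 UMIs against 2.66 in untreated cells. The top 1% of cells held 13.5% of SOD2 UMIs in TGFB1 cells and 9.51% in untreated cells, a share that tends to rise as the mean falls. The variance of SOD2 over its mean across thinned cells was 2.96 in TGFB1 cells and 5.84 in untreated cells. Counting alone gives a value of 1. This value tends to rise with the mean, so it does not show which library was more uneven. Inside clusters the variance over mean was 2.94 in cluster 0 of the TGFB1 library and 6.51 in cluster 1 of the untreated library. The uneven spread was thus also present within these 2 clusters. In cluster 3 of the TGFB1 library it was 1.23, close to counting error. GENCODE release 29 holds 2 entries named SOD2 on chromosome 6. On the opposite DNA strand WTAP overlaps both and ACAT2 overlaps the entry ENSG00000285441.1, and the sources used here do not say whether counting used strand. WTAP had 57.3 CPM in TGFB1 cells and 77.8 CPM in untreated cells, and the SOD2 overlapping transcript SOD2-OT1 had 9 and 15 UMIs.

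By cluster SOD2 was highest in untreated cluster 9 at 476 CPM and untreated cluster 1 at 408 CPM. TGFB1 cells of cluster 1 had 304 CPM, level with untreated clusters 7 at 304 CPM and 2 at 301 CPM. The other TGFB1 groups lay between 216 CPM in cluster 7 and 48.8 CPM in cluster 3, and untreated cluster 6 lay among them at 129 CPM. Cluster 6 is the untreated group in which 86.6% of cells had an MKI67 or TOP2A UMI, genes of dividing cells. The TGFB1 and untreated ranges thus overlap, unlike those of NOX4. Inside the shared clusters SOD2 was 1.34-fold lower (1.20 to 1.5) after TGFB1 in cluster 1. It was 1.41-fold lower (1.32 to 1.51) in cluster 7 and 2.60-fold lower (2.35 to 2.89) in cluster 9. The variance of SOD2 over its mean was 6.51 in thinned untreated cells of cluster 1. The interval for cluster 1, with 56 TGFB1 cells, is therefore too narrow to cover the spread between cells.

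SOD3, the secreted copper and zinc superoxide dismutase of the extracellular matrix, had 93.5 CPM (92.2 to 94.8) in TGFB1 cells and 159 CPM (157 to 161) in untreated cells, 1.70-fold lower (1.67 to 1.73). After median-of-ratios scaling its log2 ratio was -0.58, just short of 1.5-fold. Its highest levels were in clusters 9 and 7 in both libraries, at 231 and 255 CPM in TGFB1 cells and 401 and 300 CPM in untreated cells. Its lowest were in TGFB1 clusters 3 and 8, at 29.8 and 44.5 CPM. Inside the shared clusters SOD3 was 1.39-fold lower (1.16 to 1.68) in cluster 1, 1.18-fold lower (1.10 to 1.26) in cluster 7 and 1.73-fold lower (1.57 to 1.92) in cluster 9.

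SOD1, the copper and zinc superoxide dismutase of the cytosol, gave 263 CPM (261 to 266) in TGFB1 cells and 385 CPM (382 to 388) in untreated cells, 1.46-fold lower (1.45 to 1.48). Its divergent transcript SOD1-DT had 29 and 51 UMIs. Over the groups SOD1 ranged between 198 and 334 CPM in TGFB1 cells and between 236 and 460 CPM in untreated cells. It was found in 84.7% of TGFB1 cells and 92.8% of untreated cells after thinning, and its variance over its mean was 1.17 and 1.25, close to counting error. SOD1 was thus spread evenly over the cells of both libraries, where SOD2 was not.

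Catalase, the peroxisomal enzyme that splits hydrogen peroxide, had 37.7 CPM (36.8 to 38.5) in TGFB1 cells and 55.7 CPM (54.6 to 56.8) in untreated cells for its gene CAT, 1.48-fold lower (1.44 to 1.52). It was found in 24.5% of thinned TGFB1 cells and 33.5% of thinned untreated cells. Its cluster levels ran between 32.0 and 46.6 CPM in TGFB1 cells and between 39.4 and 61.1 CPM in untreated cells, and its variance over mean was 1.02 and 1.07. Both values are close to counting error, which is also where a gene with few UMIs per cell tends to lie.

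GPX1, the cytosolic glutathione peroxidase and a selenoprotein, had 347 CPM (345 to 350) in TGFB1 cells and 503 CPM (499 to 506) in untreated cells, 1.45-fold lower (1.43 to 1.46). In GENCODE release 29 its entry is typed as a polymorphic pseudogene. GPX3, the secreted glutathione peroxidase, had only 58 UMIs in TGFB1 cells and 83 UMIs in untreated cells, which is 0.278 CPM and 0.491 CPM. Its ratio, 1.77-fold lower (1.25 to 2.52), rests on these few molecules and is not counted among the genes past 1.5-fold. The GPX3 molecules were unevenly placed. Clusters 9 and 10 held 29.3% of them in TGFB1 cells, with 2.36% of the cells, and 42.2% in untreated cells, with 1.74% of the cells. In cluster 9 GPX3 reached 2.17 CPM in TGFB1 cells and 10.7 CPM in untreated cells, from 7 and 21 UMIs, and TGFB1 cells of cluster 10 had 7.61 CPM from 10 UMIs. Every other group of at least 50 cells was at 0.53 CPM or below. Clusters 9 and 10 held 35 untreated GPX3 UMIs. Those beyond the 21 in cluster 9 lay in 33 untreated cells of cluster 10, too few to be described.

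HMOX1, the inducible haem oxygenase and a classical target of NRF2 and its repressor BACH1, had 13.3 CPM (12.8 to 13.8) in TGFB1 cells and 20.9 CPM (20.2 to 21.6) in untreated cells, 1.56-fold lower (1.49 to 1.64). This call is close to its threshold: after TMM scaling the log2 ratio was -0.49, within 1.5-fold. A HMOX1 UMI was seen in 8.90% of thinned TGFB1 cells and 13.5% of thinned untreated cells. Group levels lay between 10.6 and 18.8 CPM in TGFB1 cells and between 13.1 and 25.4 CPM in untreated cells, so the ranges overlap. Inside the shared clusters HMOX1 was 1.08-fold lower (0.70 to 1.75) in cluster 1 and 1.64-fold lower (1.09 to 2.48) in cluster 9. In cluster 7 it was 1.09-fold higher (0.81 to 1.48), at 14.4 and 13.1 CPM, under the 20 CPM minimum. The intervals in clusters 1 and 7 include no change. The top 1% of cells held 23.7% of HMOX1 UMIs in TGFB1 cells and 18.3% in untreated cells. That share tends to rise as the mean falls, so it does not show which library was more uneven. The mean per thinned cell was 0.103 UMIs in TGFB1 cells and 0.162 UMIs in untreated cells.

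TXNRD1 makes the cytosolic selenoprotein that reduces thioredoxin with NADPH. It had 348 CPM (346 to 351) in TGFB1 cells and 867 CPM (863 to 871) in untreated cells, 2.49-fold lower (2.47 to 2.51). The ratio differed with depth. TXNRD1 was 1.83-fold lower (1.71 to 1.95) in cells under 7500 UMIs and 2.66-fold lower (2.63 to 2.70) in cells of 25000 UMIs or more. After thinning 8.75% of TGFB1 cells and 49.6% of untreated cells held 6 or more TXNRD1 UMIs, and 12.9% and 2.46% held none. Cells without TXNRD1 were thus more frequent and cells with many UMIs less frequent in the TGFB1 library. By group TXNRD1 was highest in untreated cluster 1 at 989 CPM, followed by TGFB1 cluster 1 at 873 CPM and untreated clusters 2, 7, 9 and 6 at 825, 724, 621 and 567 CPM. All other TGFB1 groups lay between 234 CPM in cluster 8 and 445 CPM in cluster 7. The 56 TGFB1 cells of cluster 1 were thus the sole TGFB1 group inside the untreated range, with the doubt about their assignment given above. Inside the shared clusters TXNRD1 was 1.13-fold lower (1.06 to 1.21) in cluster 1, 1.63-fold lower (1.55 to 1.70) in cluster 7 and 2.04-fold lower (1.87 to 2.22) in cluster 9.

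GCLM, the modifier subunit of the ligase that starts glutathione synthesis, differed least, with 53.9 CPM (52.9 to 54.9) in TGFB1 cells and 69.4 CPM (68.1 to 70.7) in untreated cells, 1.29-fold lower (1.25 to 1.32). It was found in 31.3% of thinned TGFB1 cells and 36.7% of thinned untreated cells. In clusters 7 and 9 its ratio was 1.01 and 1.24 (0.94 to 1.67), so the lower level over all cells was not seen there.

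**Figure D4:**
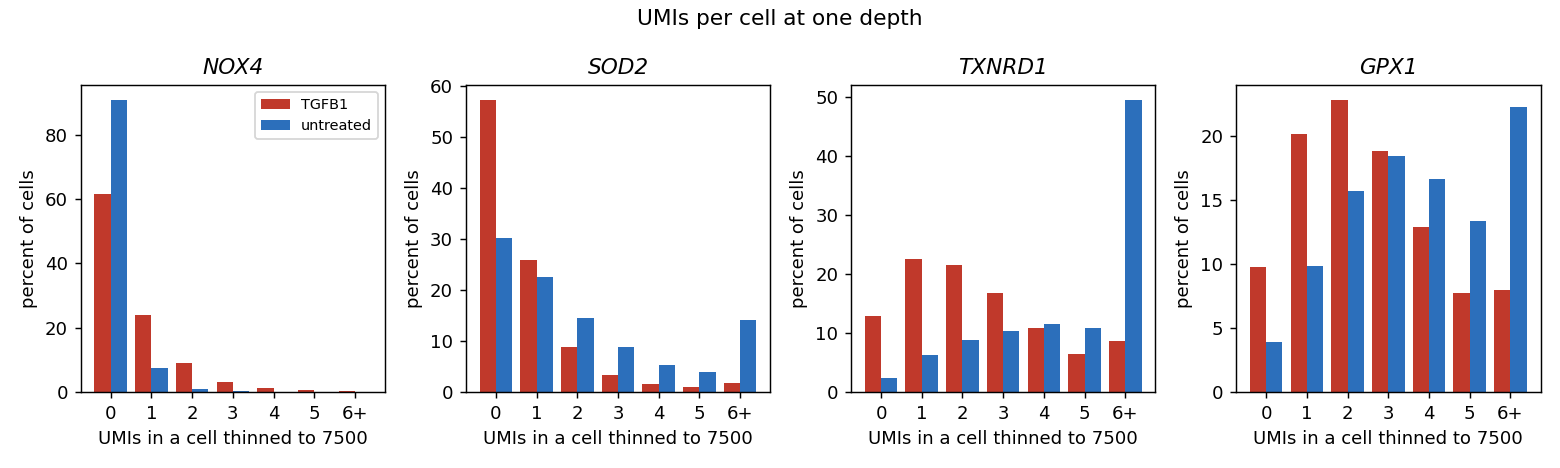
Share of cells, in percent, by the number of UMIs of a gene in a cell thinned to 7500 UMIs, for NOX4, SOD2, TXNRD1 and GPX1 in TGFB1 (red) and untreated (blue) cells. NOX4 is at 0 UMIs in 61.4% of TGFB1 and 90.9% of untreated cells, SOD2 in 57.4% and 30.3%, and TXNRD1 reaches 6 UMIs or more in 8.75% and 49.6%, and GPX1 in 7.95% and 22.2%.

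Promoter sequence from RefSeq (GRCh38.p14, 250 bases before to 50 bases after each start) was read for the antioxidant response element core, TGACNNNGC on either strand, because TXNRD1, GCLM and HMOX1 are known NRF2 targets. The table held promoters of 8 of the 10 genes, 14 promoters in all, and those of SOD1 and HMOX1 were not in it. The core was in 3 of the 14, which belong to TXNRD1 and GCLM (21.4%), in 8 of 31 promoters of a list of NRF2 regulators and targets (25.8%), and in 4687 of all 35116 promoters (13.3%). The matches of TXNRD1 and GCLM are shown with 20 bases on each side, beside those of KEAP1, the NRF2 inhibitor, and ME1, a cytosolic malic enzyme that supplies NADPH. KEAP1 and ME1 hold 2 matches each, of which 1 each is shown. Each is written 5′ to 3′ on the strand of its gene, and the capitals mark the core. In the lines whose capitals begin with GC the core lies on the opposite strand and is read backwards.
TXNRD1, chr12:104215660-104215708, plus strand: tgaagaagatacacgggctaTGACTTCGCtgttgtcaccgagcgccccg
TXNRD1, chr12:104215751-104215799, plus strand: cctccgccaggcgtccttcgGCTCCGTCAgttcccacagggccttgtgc
TXNRD1, chr12:104286910-104286958, plus strand: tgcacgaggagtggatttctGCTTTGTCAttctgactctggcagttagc
GCLM, chr1:93909436-93909484, minus strand: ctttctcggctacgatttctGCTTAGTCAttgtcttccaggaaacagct
KEAP1, chr19:10502774-10502822, minus strand: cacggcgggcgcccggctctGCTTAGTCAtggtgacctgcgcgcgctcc
ME1, chr6:83431160-83431208, minus strand: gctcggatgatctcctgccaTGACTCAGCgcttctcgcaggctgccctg

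GCLM and KEAP1 hold the same 9 letters, GCTTAGTCA, with unlike flanks, and their log2 ratios were -0.36 and -0.58, against -1.32 for TXNRD1 and -0.60 for ME1. Genes with the same core therefore differed in the size of their ratio. The SMAD palindrome GTCTAGAC and the CAGA box AGCCAGACA, letters bound by SMAD proteins downstream of transforming growth factor beta, were in none of the 14 promoters, NOX4 included. They occur in 0.202% and 0.288% of all promoters of this length, so a match in 14 would be rare. A TATAAA core was also in none of the 14, against 11.5% of all promoters. A match or its absence in these windows describes letters and not binding.

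Genes around the enzymes were taken as 6 lists with 139 different genes, of which 117 were at 5 CPM or more. Over the 6 lists 12 genes were past 1.5-fold higher and 27 past 1.5-fold lower, with a median log2 ratio of -0.20 against -0.10 for all genes. Scaled by TMM these counts were 15 and 20, and scaled by the median of ratios they were 18 and 19. Over all genes the higher and lower counts were 923 and 1551 as CPM, 1291 and 1063 after TMM, and 1416 and 973 after median-of-ratios scaling. The balance of directions thus depends on the scaling, both in the lists and in all genes.

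Among NADPH oxidase catalytic and partner subunits, 6 of 19 genes were measured, 1 was higher and 1 was lower, beside 8.45% and 14.2% of all genes, with a median log2 ratio of -0.11. That median was 0.05 after TMM and 0.08 after median-of-ratios scaling, so its sign depends on the scaling. SH3PXD2A, the scaffold TKS5 of invasive cell protrusions, had 549 CPM in TGFB1 cells and 152 CPM in untreated cells, 3.62-fold higher. RAC2, a small GTPase of the phagocyte oxidase, had 3.59 and 10.0 CPM, 2.80-fold lower. CYBA, the p22phox subunit that NOX4 needs, had 157 CPM in TGFB1 cells and 208 CPM in untreated cells, within 1.5-fold. POLDIP2, reported as a NOX4 partner, had 31.2 and 34.8 CPM. The higher NOX4 level was thus not accompanied by a higher level of its membrane partner.

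NRF2 regulators and targets had the most lower genes, 12 of 27 measured against 2 higher, with a median of -0.46, where 14.2% of all genes were lower and 8.45% higher. The 4 farthest ratios were those of PIR (pirin, an iron-binding nuclear protein; 5.07 CPM in TGFB1 and 19.8 CPM in untreated cells), NQO1 (a quinone reductase; 70.4 and 164 CPM), BLVRB (biliverdin reductase B; 49.4 and 111 CPM) and FTH1 (ferritin heavy chain; 4681 and 10489 CPM). They were 3.91-, 2.33-, 2.24- and 2.24-fold lower. Other lower genes included FTL, EPHX1, ABCB6, SQSTM1, TKT, TRIM16L and ME1. MAFK, a small MAF partner, was higher at 13.1 against 7.70 CPM, and so was UGDH at 104 against 64.6 CPM. NFE2L2, which encodes NRF2, had 166 CPM in TGFB1 and 228 CPM in untreated cells, and KEAP1 had 15.5 and 23.2 CPM, both within 1.5-fold. TXNRD1, GCLM and HMOX1 were kept out of this list, so the list and the 10 genes do not share members.

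Among glutathione genes 23 of 28 were measured, 2 of them higher and 5 of them lower, at a median log2 ratio of -0.27, beside 8.45% higher and 14.2% lower in all genes. GPX4, the peroxidase that clears lipid peroxides, had 295 CPM in TGFB1 cells and 629 CPM in untreated cells, 2.13-fold lower, and MGST1, a membrane-bound glutathione transferase, had 217 and 418 CPM, 1.93-fold lower. CHAC1, which degrades glutathione, had 41.9 and 20.2 CPM, 2.08-fold higher, and CTH, which makes cysteine, had 13.2 and 7.55 CPM, 1.75-fold higher. The lower genes also included GSTM3, GSTK1 and GLRX. The other 16 measured genes of the list were within 1.5-fold.

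Among thioredoxins, peroxiredoxins and methionine sulfoxide reductases all 22 were measured, 1 was higher and 2 were lower, at a median log2 ratio of -0.20. Both are smaller shares than the 8.45% and 14.2% of all genes. TXNIP, which binds thioredoxin and blocks it, had 29.3 CPM in TGFB1 cells and 130 CPM in untreated cells, 4.43-fold lower. SESN3, a sestrin, had 9.01 and 16.8 CPM, 1.87-fold lower. MSRB3, a methionine sulfoxide reductase, had 402 and 213 CPM, 1.89-fold higher. PRDX2, a peroxiredoxin, had 114 and 169 CPM, within 1.5-fold. The remaining 19 genes of this list, most of the peroxiredoxins and thioredoxins, were within 1.5-fold while TXNRD1, which recharges thioredoxin, was not.

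In the list of copper delivery, haem breakdown and selenoprotein synthesis, 23 of 24 genes were measured, 3 of them past 1.5-fold higher and 3 past it on the lower side, with a median log2 ratio of 0.01, beside 8.45% and 14.2% of all genes. The higher genes were the selenoprotein genes SELENOS at 198 CPM in TGFB1 and 107 CPM in untreated cells, SELENOW at 342 and 214 CPM and SELENOM at 946 and 611 CPM. BLVRB, PSTK and SEPSECS were lower, and the last 2 encode enzymes that make the selenocysteine transfer RNA. TXNRD1, GPX1 and GPX4, described above at lower levels, are selenoprotein genes too.

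Among mitochondrial NADPH and other hydrogen peroxide enzymes, 20 of 22 were measured, 3 of them higher and 5 of them lower, at a median log2 ratio of 0.14, beside 8.45% higher and 14.2% lower in all genes. The monoamine oxidases, which make hydrogen peroxide at the outer mitochondrial membrane, were the lowest: MAOA had 1.18 CPM in TGFB1 cells and 7.86 CPM in untreated cells, 6.68-fold lower, and MAOB had 1.35 and 5.75 CPM, 4.26-fold lower. UCP2, an inner-membrane carrier, had 18.2 and 5.53 CPM, 3.28-fold higher, and ME3, a mitochondrial malic enzyme, had 10.6 and 18.3 CPM, 1.73-fold lower. MTHFD2 and ALDH1L2, enzymes of mitochondrial folate metabolism, were higher at 249 against 152 CPM and 192 against 127 CPM. NNT and IDH1, which supply NADPH, were lower. The other 12 measured genes were within 1.5-fold.

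**Figure D5:**
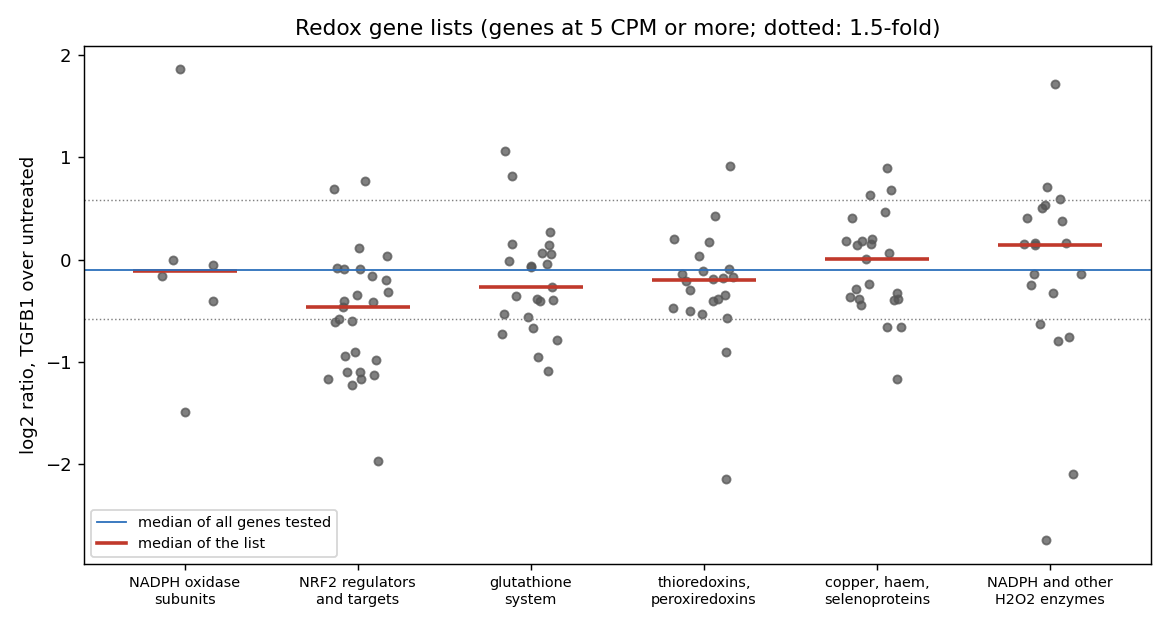
Log2 ratio of TGFB1 over untreated cells for each gene at 5 CPM or more in the 6 redox lists, 1 point per gene, with the median of each list (red) and of all genes (blue). The median is lowest in the NRF2 list at -0.46 and highest in the mitochondrial and hydrogen peroxide list at 0.14.

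Within the TGFB1 library the enzymes separated clusters that share a high NOX4 level. Cells of cluster 3 had 87.0 CPM of NOX4 and cells of cluster 0 had 118 CPM. SOD3 was at 29.8 CPM in cluster 3 and 106 CPM in cluster 0, 3.56-fold lower (3.38 to 3.75). SOD2 was at 48.8 and 129 CPM, 2.65-fold lower (2.54 to 2.76), and TXNRD1 at 254 and 415 CPM, 1.63-fold lower (1.60 to 1.66). These were 3 of 8 members past 1.5-fold lower, where 5.1% of 6455 genes were, and no member was higher, where 3.38% were. Cluster 3 also had more IL11, 183 CPM against 110 CPM in cluster 0. Clusters 4, 8 and 5 of the TGFB1 library had 160, 231 and 125 CPM of IL11, with SOD3 at 129, 44.5 and 105 CPM.

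The groups with dividing cells were low in the same 3 enzymes in each library. TGFB1 cluster 3 was also low in them, with an MKI67 or TOP2A UMI in only 6.02% of its cells. Its SOD2 and SOD3 levels, 48.8 and 29.8 CPM, were below the 66.3 and 44.5 CPM of TGFB1 cluster 8. Cluster 8 of the TGFB1 library, in which 80.2% of cells had an MKI67 or TOP2A UMI, had SOD2 1.95-fold lower (1.79 to 2.12), SOD3 2.38-fold lower (2.15 to 2.65) and TXNRD1 1.77-fold lower (1.69 to 1.85) than cluster 0. These were 3 of 8 members, against 9.6% of 6909 genes lower, and no member was past 1.5-fold higher, against 16.6%. Cluster 6 of the untreated library had SOD2 3.17-fold lower (3.04 to 3.30), SOD3 1.99-fold lower (1.89 to 2.10), TXNRD1 1.74-fold lower (1.71 to 1.78) and NOX4 2.85-fold lower (2.41 to 3.38) than cluster 1. These were 4 of 9 members, against 10.1% of 7247 genes lower, and no member was higher, against 14.8%.

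Cells with a NOX4 UMI did not differ much in the enzymes from cells of the same cluster and library without any. After thinning, cluster 0 of the TGFB1 library had 1808 cells with and 1832 cells without NOX4, cluster 3 had 972 and 1465, cluster 4 had 520 and 1774, and cluster 1 of the untreated library had 424 and 3150. SOD2 in cells with NOX4 over cells without was 1.08 (1.01 to 1.15) in cluster 0 and 1.17 (1.02 to 1.34) in cluster 3. It was 1.11 (0.99 to 1.24) in cluster 4 and 1.13 (1.08 to 1.20) in untreated cluster 1. Of the members at 20 CPM or more none was past 1.5-fold in either direction in any of these 4 groups. In cluster 0 no gene was. In cluster 3 0.0479% of genes were higher and none lower, in cluster 4 0.32% were higher and 0.0356% lower, and in untreated cluster 1 0.674% were higher and 0.63% lower. At this depth most cells hold 0 or 1 NOX4 UMI, and few genes of any kind were past 1.5-fold. The split therefore cannot show whether NOX4 and SOD2 go in opposite directions between cells of a cluster.

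Over the 14 groups, the genes with the pattern most like that of a member were ranked by Pearson's r of log2(CPM + 1) among 6680 genes that reached 20 CPM in a library. For NOX4 they were SYNE1 (r 0.97), CEMIP2 (0.97), ZSWIM4 (0.96), GOLGA2 (0.96) and INTU (0.95). For SOD2 they were EIF4B, PRSS23-AS1, DPP4, DHRS3 and IL1R1 (0.97 to 0.95), and for TXNRD1 they were LIPA, MFF, HGF, GAS1 and TPBG (all 0.97). For HMOX1 they were SNX21, OAF, SERP2, CLNS1A and GRINA (0.91 to 0.87), and for GPX3 they were NR2F2, ADAMTS2, CD248, MGP and PWWP3A (0.90 to 0.84). The 14 groups come from 2 libraries, so the groups share library and depth, and each r is a description. Among these 14 groups GPX3 was at 0.53 CPM or below outside cluster 9 and TGFB1 cells of cluster 10. Its r values thus rest mainly on 7 and 21 UMIs in TGFB1 and untreated cells of cluster 9. They rest also on 10 UMIs in TGFB1 cells of cluster 10.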

How the data were processed

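Commercial adipose-derived mesenchymal stem cells were measured in 1 TGFB1 and 1 untreated 10x library. The deposited matrix gives, as raw UMI counts, 38606 genes by 20656 cells. For each cell a deposited table lists UMIs, genes, mitochondrial percent, library and the cluster at resolution 0.4, and its UMI totals equalled the matrix sums in all 20656 cells. Cell Ranger 9.0.1, Seurat and GRCh38 are named, without roles, in the submitters' processing notes; the annotation and the use of strand are not given in the sources used here. Cells had at least 502 genes and at most 5.00% mitochondrial UMIs as deposited. No doublet caller was run and any doublets were kept.

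UMIs were summed per library or cluster to CPM. CPM intervals are exact Poisson, ratio intervals exact conditional binomial (Clopper-Pearson) and share intervals exact binomial, all at 95% and for counting error only. The floor set by a count of 0 is 3 UMIs (0.0144 CPM for TGFB1, 0.0178 CPM for untreated cells). Contrasts between or inside clusters used genes at 20 CPM or more in either side. Cells were thinned without replacement to 7500 UMIs. Python 3.11.15, numpy 2.4.6, scipy 1.17.1 and pandas 2.3.3 were used, and edgeR 4.0.16 gave TMM factors only (0.948 for TGFB1, 1.06 for untreated; median-of-ratios factors 0.936 and 1.07). The ratio code was tested on simulated counts.

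The members and lists were chosen with earlier results of these data known. Named genes were all 10 members, the 4 measured genes of each redox list farthest from a log2 ratio of 0, and the 5 genes closest to NOX4, SOD2, HMOX1, GPX3 and TXNRD1 over the 14 groups. Other genes of the lists were named after their values were seen. Alternatives were other scalings, equal weight per cell, thinning, cell filters, left-out clusters, other folds and minimum levels, and depth classes, which were added after seeing the data.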

Additional observations from a re-analysis of the deposited data

How the results depend on the processing

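NOX4 was higher under every alternative that was run. Its ratio of 5.35 was 5.96 after TMM scaling, 6.11 after median-of-ratios scaling, 5.67 with equal weight per cell, 5.02 without cells with an MKI67 or TOP2A UMI and 5.64 without clusters 7, 9 and 10. By depth class, chosen after seeing the data, it was 3.39, 7.40 and 4.86 in cells under 7500, of 7500 to under 15000 and of 25000 or more UMIs. The cause was not tested. Members past 1.5-fold lower were 4, against 2 at 2-fold and 2 after median-of-ratios scaling. The shift of 0.19 (log2) by that scaling takes SOD3 and HMOX1 under the threshold. The count was 5 with equal weight per cell and 5 with totals without mitochondrial and ribosomal protein genes. Genes of the redox lists past the threshold were 12 higher and 27 lower, against 3 and 12 at 2-fold, and 17 lower with a minimum of 20 CPM, where fewer genes are tested. Thinned to 5000 or 10000 UMIs, a NOX4 UMI was found in 31.3% or 44.4% of TGFB1 cells and in 6.32% or 11.0% of untreated cells, because the share depends on the depth kept. Of the other results 121 values stayed within their counting interval (or within 1.5 times, for a count) and 85 moved beyond it, none with a change of sign in a called value. GPX3 gave no ratio in cells under 7500 UMIs, where untreated cells had 0 UMIs. No paired analysis was possible because each group is 1 library. With 1 library per group, a difference of culture or library preparation cannot be told apart from the treatment.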
